A study of Mus musculus with 15 samples.

Results

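The 35 genes described here are interferon-stimulated genes of antiviral defence, measured by sequencing of polyadenylated RNA from mouse forelimb joints. They were taken by name as the rows of the deposited count table whose gene symbol equals one of 35 listed symbols. All 35 were found among the 26688 genes of the table, and all 35 passed the filter on low counts that left 15770 genes to be tested. The study compared 3 groups of 5 libraries. The CIA+F20 group were male DBA/1 mice with collagen-induced arthritis (CIA) that were given F20, a compound known here by its code name only, by mouth once a day for 21 days at 10 mg/kg. The CIA group were arthritic mice of the same strain and sex without F20. Both had been immunized and boosted with bovine type II collagen in Freund's adjuvant, and both took in only animals whose arthritis index was over 5. The healthy group were male DBA/1 mice that were never immunized, so that collagen, adjuvant and arthritis cannot be told apart in any comparison with them. The mice were 8 weeks old at assignment and are labelled wild type. What the CIA group was given in place of F20 is not given in the sources used here. Each library held joint capsule with synovial and periarticular soft tissue of the forearm, wrist and paw, after removal of skin and most muscle. Group members are numbered 1 to 5 below, and values given for a group run in that order. The sources used here do not state that every library came from its own mouse. The p-values therefore set differences between groups against the spread between libraries, which may not be the spread between mice.

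Type I interferons bind a cell-surface receptor whose kinases activate transcription factors, STAT2 among them. With IRF9 they switch on genes that carry an interferon-stimulated response element (ISRE) in their promoters. Interferon gamma acts mainly at a different element, the gamma-activated site (GAS). The induced proteins sense viral RNA, degrade it, block its translation or trap virus particles, and several of them feed back on the pathway. In arthritic joints such genes are known as a signature of interferon exposure in synovial and infiltrating cells.

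In CIA joints 32 of the 35 genes rose over healthy joints, by 1.33-fold for Parp9 to 25.2-fold for Oas3, and none fell, where 26.0% of all tested genes rose. Under F20 the mean CPM of every member except Dtx3l was below that of CIA joints. By edgeR's test 3 of the 35 fell, Irf1, Zbp1 and Trim30a, where 15.5% of all tested genes fell. That count ran from 0 to 11 with single libraries left out, and DESeq2 called 6 lower, against 19.4% of all genes. The median of the 32 genes kept 67.4% of its log2 rise under F20, whereas the median of all 4094 genes that rose in CIA kept 32.2%. Between CIA+F20 and healthy joints edgeR called none of the 15770 tested genes, whereas DESeq2 called 110 higher, 17 of them members. For 20 of the 35 genes every CIA+F20 library lay above every healthy library, against 1.98% of all tested genes. The share that was kept ran from 30.9% for Irf1 to 102% for Ifit2. Its SD between CIA+F20 libraries was 35.2 percentage points for Irf1 and 54.6 for Ifit2.

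The libraries held 18627303 to 34247317 reads in genes. Skeletal muscle markers were abundant in every group, with a summed level of 62600 to 82300 CPM (counts scaled to library size) in CIA+F20, 33800 to 70200 CPM in CIA and 71900 to 85800 CPM in healthy libraries, although most muscle had been removed. Healthy library 4 held 50.2 CPM of T cell markers, against 0.164 to 1.36 CPM in the other healthy libraries, and its fibroblast markers were the lowest of all at 344 CPM. Healthy library 3 stood apart by 388 CPM of neutrophil markers and 36.4 CPM of keratinocyte markers. Because the tissue was measured in bulk, fewer cells of a type and less RNA per cell cannot be told apart.

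Promoter windows were searched for the core of both elements to show how many members carry it there. The window was the 250 bases before the start of the canonical transcript in the mouse genome GRCm39, searched on both strands for the ISRE core (GAAA, any 2 bases, GAAA) and the GAS core TTCNNNGAA, which is its own reverse complement. An ISRE core stood in 12 of the 35 windows (34.3%), against 3.32% of the windows of all 21770 protein-coding genes and 4.42% of those of protein-coding genes that rose in CIA. A GAS core stood in 6 of the 35 windows (17.1%), against 7.7% of all windows, and GAS and ISRE matches share bases in Bst2 and in Zbp1. The sequences below, read 5′ to 3′ on the gene's strand, show the match nearest to the start in 6 genes, chosen because they include the member of the largest rise (Oas3), members that fell under F20 (Zbp1 and Irf1), the ISG15 system (Isg15 and Usp18) and the member with a match that kept most of its rise (Ifit1). Capitals mark the ISRE core, or in Irf1 the GAS core, and a match on the other strand appears as its reverse complement.
Oas3, chr5:120915770-120915819, minus strand: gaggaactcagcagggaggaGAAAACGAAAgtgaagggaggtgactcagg
Isg15, chr4:156285312-156285361, minus strand: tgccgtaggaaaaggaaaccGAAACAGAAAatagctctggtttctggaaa
Usp18, chr6:121222786-121222835, plus strand: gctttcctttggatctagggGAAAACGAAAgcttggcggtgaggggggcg
Zbp1, chr2:173060732-173060781, minus strand: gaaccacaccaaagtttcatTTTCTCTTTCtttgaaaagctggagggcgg
Ifit1, chr19:34618184-34618233, plus strand: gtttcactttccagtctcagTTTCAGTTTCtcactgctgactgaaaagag
Irf1, chr11:53660731-53660779, plus strand: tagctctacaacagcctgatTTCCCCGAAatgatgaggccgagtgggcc

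In most genes the matches lay near the start: the core of Isg15 ends 29 bases before it, that of Zbp1 28 bases and that of Oas3 61 bases. Zbp1 held 4 matches and Isg15 3, which overlap each other in part, and the match farthest from a start was that of Stat2, ending 198 bases before it. The 12 members with an ISRE core were Stat2, Zbp1, Oas2, Oas3, Ifit1, Ifit3, Isg15, Usp18, Rsad2, Bst2, Trim30a and Rtp4. All 12 rose in CIA, with a median log2 fold change of 1.55, and 20 of the 23 members without one rose, with a median over the 23 of 1.05. The median share of the rise kept under F20 was 68.0% for the 12, within 57.2% to 88.2%, and 66.9% for the members without a match that rose, within 30.9% to 102%. A match describes the letters only, and was not tested as a binding site.

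**Figure D1:**
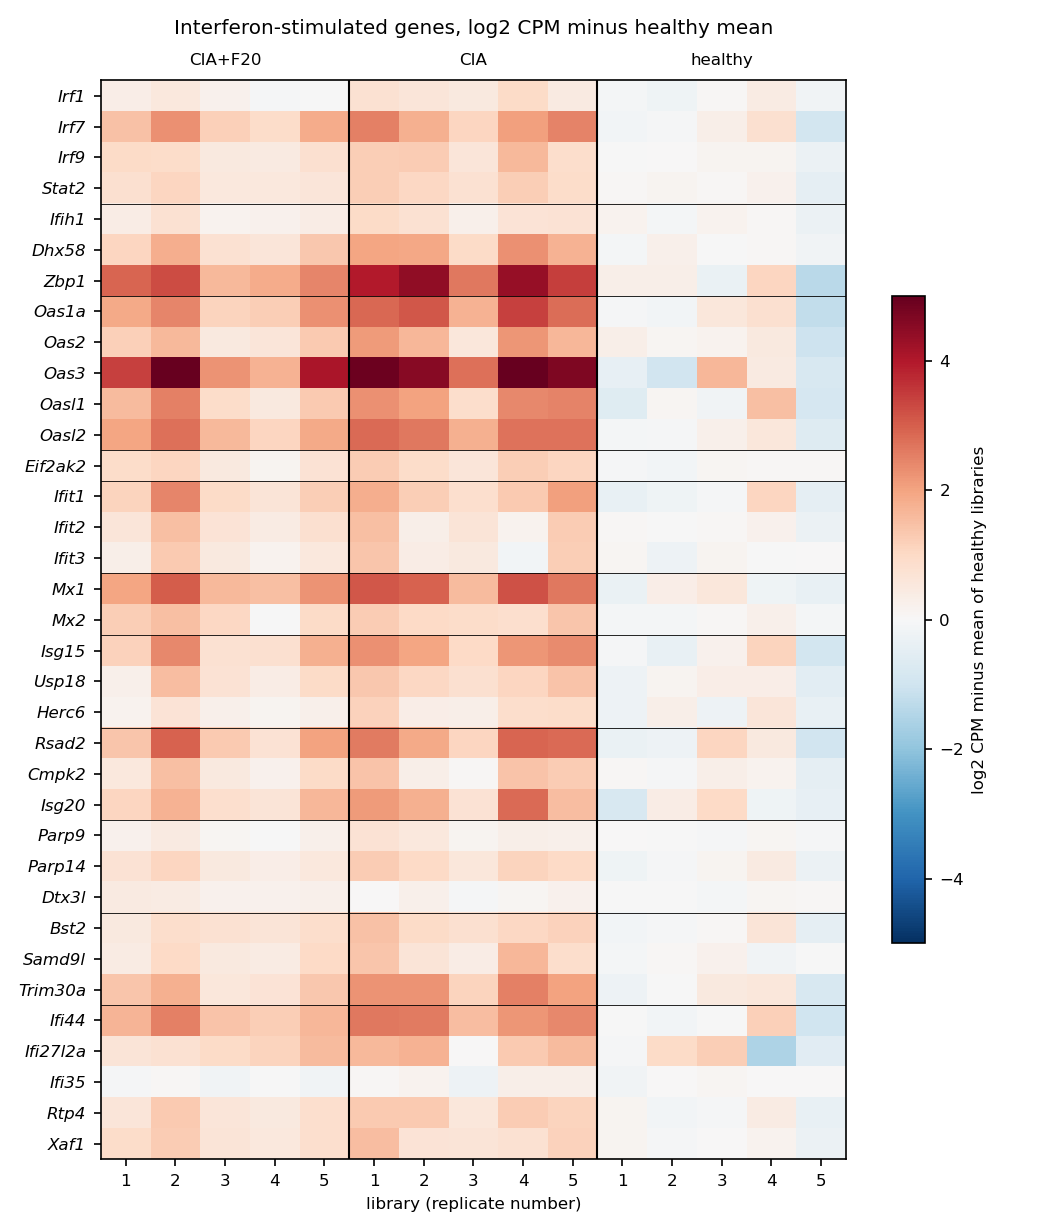
Level of each of the 35 genes (rows, grouped by role) in each library (columns, in the groups CIA+F20, CIA and healthy), as log2 CPM minus the mean of the healthy libraries, red where higher and blue where lower, with colours saturating at 5. CIA 3 is the lowest CIA library for 31 of the 35 genes (18.6% of all tested genes), and CIA+F20 2 the highest treated library for 31 (17.2%).

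The first question of the design is what arthritis did to these genes, and it is answered here role by role, with CIA set against healthy joints. Across all tested genes, 26.0% rose and 19.5% fell in CIA at an adjusted p under 0.05 (edgeR's quasi-likelihood test with Benjamini-Hochberg adjustment over all 15770 genes). Of the 35 members, 32 rose and none fell. The libraries of both groups did not overlap for 24 of the 35 members, all of them higher in CIA, against 11.7% of all genes with every CIA library above every healthy library and 12.5% with every one below. The median log2 fold change of the members was 1.13, that of all tested genes 0.07. Across the alternatives tried, including each library left out in turn, 31 to 33 members rose and none fell. Of single libraries left out, healthy 2, healthy 5, CIA 1 and CIA 5 each cost 1 member its call, Ifit3 each time. Without both healthy 3 and healthy 4 the count was again 32, with Ifi27l2a called in place of Ifit3.

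Among the transcription factors, Irf7, which amplifies type I interferon production, had 13.7, 24.1, 11.2, 9.32 and 17.8 CPM in CIA+F20 libraries, 28.0, 16.8, 10.2, 20.5 and 27.4 CPM in CIA libraries and 4.47, 4.73, 5.92, 8.48 and 2.55 CPM in healthy libraries. Every library of both arthritic groups lay above the highest healthy library, healthy 4, and both arthritic groups overlapped. Irf7 rose 3.96-fold in CIA (log2 fold change 1.99 ± 0.35 SE, adjusted p = 0.000716, edgeR).
Irf9, the DNA-binding partner of STAT2, had 26.7, 25.9, 19.2, 18.6 and 23.9 CPM in CIA+F20 libraries, 32.3, 33.0, 20.7, 42.6 and 25.6 CPM in CIA libraries and 13.4, 14.1, 15.1, 15.2 and 11.4 CPM in healthy libraries. Its lowest arthritic library was CIA+F20 4, still above the highest healthy library. The rise of Irf9 in CIA was 2.23-fold (1.16 ± 0.17 SE on the log2 scale, edgeR adjusted p = 0.000319).
Stat2 had 23.0, 27.7, 18.7, 18.7 and 19.9 CPM in CIA+F20 libraries, 31.2, 27.3, 22.2, 31.1 and 25.1 CPM in CIA libraries and 13.5, 14.5, 13.7, 15.2 and 9.5 CPM in healthy libraries. Both arthritic groups stood wholly above the healthy group, of which healthy 5 was by far the lowest. Stat2 rose 2.06-fold in CIA (1.04 ± 0.15 SE, edgeR adjusted p = 0.000262).
Irf1, a factor induced strongly by interferon gamma, had 18.9, 21.5, 17.5, 14.6 and 15 CPM in CIA+F20 libraries, 25.3, 23.3, 21.2, 29.4 and 20.5 CPM in CIA libraries and 14.2, 12.9, 15.7, 20.2 and 13.3 CPM in healthy libraries. Here CIA stood above healthy without overlap, while CIA+F20 libraries overlapped with both. Irf1 rose 1.57-fold in CIA (0.65 ± 0.15 SE, edgeR adjusted p = 0.00279).

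The sensors of foreign or misplaced nucleic acid all rose. Zbp1, which binds left-handed double helices and can start cell death, had 3.88, 5.07, 1.56, 1.84 and 2.83 CPM in CIA+F20 libraries, 8.2, 11.3, 3.23, 10.7 and 5.67 CPM in CIA libraries and 0.574, 0.579, 0.348, 1.05 and 0.132 CPM in healthy libraries. Every arthritic library lay above every healthy one, with CIA 3 lowest in its group, and the healthy values rest on as few as 4 reads. The rise of Zbp1 was 15.1-fold (3.92 ± 0.51 SE, edgeR adjusted p = 0.000215). Dhx58, which encodes the RNA helicase LGP2, averaged 3.98 ± 1.44 CPM in CIA+F20, 6.25 ± 1.85 CPM in CIA and 1.72 ± 0.213 CPM in healthy joints (SD, n = 5 each) and rose 3.63-fold in CIA. Ifih1, which encodes the long double-stranded RNA sensor MDA5, rose 1.61-fold. Dhx58 shares 2637 bases with an antisense RNA gene, and the sources used here do not say whether strand was used in counting.

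The OAS family, whose active members make the short oligoadenylates that turn on RNase L, gave the largest rise. Oas3 had 4.99, 15, 2.19, 1.52 and 8.04 CPM in CIA+F20 libraries, 14.3, 10.9, 3.11, 27.1 and 12.1 CPM in CIA libraries and 0.287, 0.170, 1.43, 0.581 and 0.199 CPM in healthy libraries. The lowest arthritic library, CIA+F20 4, was only just above healthy 3, and the range within each arthritic group was wide. Its rise of 25.2-fold in CIA carried the largest error of the 35 genes (4.65 ± 0.79 SE, edgeR adjusted p = 0.000615).
Oasl2, an OAS-like protein that ends in ubiquitin-like domains, had 18.4, 31.5, 14.2, 9.83 and 17.4 CPM in CIA+F20 libraries, 33.4, 29.5, 16, 30.6 and 31.0 CPM in CIA libraries and 4.34, 4.43, 5.50, 6.86 and 2.98 CPM in healthy libraries. CIA 3 lay far below the other CIA libraries, which stood close together, and still above all healthy libraries. Oasl2 had the lowest p of the 35 genes in this comparison and rose 5.86-fold (2.55 ± 0.31 SE, edgeR adjusted p = 0.000169).
Oas1a had 4.68, 6.75, 2.69, 2.89 and 6.03 CPM in CIA+F20 libraries, 9.12, 10.7, 4.18, 13.3 and 8.79 CPM in CIA libraries and 1.15, 1.09, 1.81, 2.15 and 0.463 CPM in healthy libraries. No healthy library reached the lowest arthritic one. Oas1a rose 7.01-fold in CIA (2.81 ± 0.41 SE, edgeR adjusted p = 0.000288), though reads could have been split with its close copy Oas1g, which rose too. Oas2 rose 3.2-fold. Oasl1, which in mice also restrains translation of Irf7, rose 3.96-fold, with libraries that overlapped between CIA and healthy joints.

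Eif2ak2, which encodes the kinase PKR that halts translation on double-stranded RNA, averaged 9.48 ± 2.37 CPM in CIA+F20, 12.0 ± 2.16 CPM in CIA and 5.78 ± 0.382 CPM in healthy joints (SD, n = 5 each) and rose 2.07-fold in CIA. The Mx proteins are dynamin-like GTPases that trap viral nucleocapsids. Mx1 had 1.33, 2.78, 1.03, 0.920 and 1.60 CPM in CIA+F20 libraries, 2.95, 2.64, 0.998, 3.18 and 2.13 CPM in CIA libraries and 0.205, 0.374, 0.453, 0.232 and 0.199 CPM in healthy libraries. All 10 arthritic libraries stood above the healthy ones, CIA 3 and CIA+F20 4 being the lowest of them, and the healthy values rest on as few as 4 reads. Mx1 rose 7.92-fold in CIA (2.98 ± 0.40 SE, edgeR adjusted p = 0.000237).
Mx2 had 2.36, 2.86, 2.09, 0.951 and 1.94 CPM in CIA+F20 libraries, 2.40, 1.98, 1.88, 1.78 and 2.62 CPM in CIA libraries and 0.902, 0.885, 1.01, 1.16 and 0.894 CPM in healthy libraries. CIA+F20 4 lay among the healthy libraries, and the other treated libraries within or above the CIA range. Mx2 rose 2.2-fold in CIA (1.14 ± 0.25 SE, edgeR adjusted p = 0.00233).

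The IFIT proteins bind viral RNA ends and block translation. Ifit1 had 7.16, 17.9, 6.40, 5.20 and 7.80 CPM in CIA+F20 libraries, 11.6, 7.79, 5.87, 8.17 and 13.9 CPM in CIA libraries and 2.54, 2.79, 3.17, 7.03 and 2.35 CPM in healthy libraries. Healthy 4 was high and overlapped both arthritic groups, and CIA+F20 2 was the highest library of all. Ifit1 rose 2.68-fold in CIA (1.42 ± 0.38 SE, edgeR adjusted p = 0.008).
Ifit2 had 8.91, 16.9, 9.37, 7.74 and 10.2 CPM in CIA+F20 libraries, 16.9, 7.17, 9.33, 6.66 and 14.1 CPM in CIA libraries and 6.06, 5.82, 6.03, 6.74 and 4.83 CPM in healthy libraries. Every CIA+F20 library lay above every healthy library, whereas CIA 4 lay just below healthy 4. Ifit2 rose 1.84-fold in CIA (0.88 ± 0.26 SE, edgeR adjusted p = 0.0146). Ifit3 rose 1.72-fold (edgeR adjusted p = 0.0279). Its close copy Ifit3b, which could share its reads, stood at a log2 difference of -0.01 (adjusted p = 0.986 in edgeR).

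Isg15, a ubiquitin-like protein that is joined to other proteins, had 4.19, 10.0, 3.18, 3.30 and 6.48 CPM in CIA+F20 libraries, 9.45, 7.5, 3.8, 8.84 and 9.93 CPM in CIA libraries and 1.80, 1.40, 2.16, 4.12 and 0.960 CPM in healthy libraries. CIA 3 and healthy 4 were what made CIA and healthy joints overlap. Isg15 rose 3.84-fold in CIA (1.94 ± 0.41 SE, edgeR adjusted p = 0.00215). Usp18, the protease that removes ISG15 and dampens receptor signalling, rose 2.19-fold.
Herc6, the mouse ligase that attaches ISG15, had 3.58, 5.11, 3.85, 3.52 and 3.78 CPM in CIA+F20 libraries, 7.10, 4.06, 3.92, 5.96 and 6.10 CPM in CIA libraries and 2.62, 3.88, 2.65, 4.88 and 2.48 CPM in healthy libraries. The 3 groups overlapped one another. Herc6 rose 1.65-fold in CIA (0.72 ± 0.22 SE, edgeR adjusted p = 0.0172), and the call was lost when only those 10 libraries entered the fit.
Rsad2, which encodes viperin and makes a chain-terminating nucleotide, rose 4.84-fold, and its neighbour Cmpk2, a mitochondrial nucleotide kinase whose gene lies 12751 bases away, rose 2-fold. Isg20, an exonuclease, rose 3.58-fold.

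Parp9 and Dtx3l encode partners in one complex that modifies histones and ubiquitin, and the 5′ ends of their genes overlap by 682 bases on opposite strands. Parp9 had 12.6, 14.9, 11.5, 10.6 and 12.9 CPM in CIA+F20 libraries, 17.7, 15.5, 11.7, 13.3 and 12.8 CPM in CIA libraries and 10.9, 10.6, 10.3, 11.5 and 10.3 CPM in healthy libraries. CIA stood narrowly above healthy joints without overlap. Parp9 rose 1.33-fold in CIA (0.41 ± 0.12 SE, edgeR adjusted p = 0.0125).
Dtx3l had 26.5, 25.8, 22.6, 22.6 and 23.4 CPM in CIA+F20 libraries, 19.7, 23.3, 18.9, 20.8 and 22.8 CPM in CIA libraries and 19.3, 19.1, 18.1, 20.8 and 20.6 CPM in healthy libraries. The CIA+F20 libraries were the highest here, above all healthy libraries and overlapping with CIA. Dtx3l did not pass the test in CIA against healthy joints (0.11 ± 0.08 SE, edgeR adjusted p = 0.289). Parp14, which acts in STAT6 signalling and carries several macrodomains, rose 1.98-fold.

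Among the remaining members, Trim30a, which restrains inflammatory signalling in mouse cells, had 13.0, 16.8, 7.39, 7.96 and 12.7 CPM in CIA+F20 libraries, 23.4, 23.4, 10.8, 28.4 and 19.9 CPM in CIA libraries and 4.06, 4.87, 6.93, 7.38 and 2.81 CPM in healthy libraries. Both arthritic groups stood above the healthy group, with CIA+F20 3 only just above healthy 4, and CIA 3 within the CIA+F20 range. Trim30a rose 4.08-fold in CIA (2.03 ± 0.31 SE, edgeR adjusted p = 0.000384).
Xaf1, a pro-apoptotic protein, had 31.9, 40.1, 26.4, 24.1 and 30.2 CPM in CIA+F20 libraries, 48.2, 27.0, 26.4, 28.0 and 37.3 CPM in CIA libraries and 18.3, 16.2, 17.1, 18.7 and 13.6 CPM in healthy libraries. No healthy library reached an arthritic one, and CIA+F20 and CIA covered much the same range. Xaf1 rose 1.99-fold in CIA (0.99 ± 0.18 SE, edgeR adjusted p = 0.000821).
Reads of Trim30a could also have been split with its close copy Trim30d.
Bst2, the tether that holds budding virus particles, rose 2.10-fold, Samd9l, a translation inhibitor, 2.07-fold, Ifi44 4.61-fold and Rtp4 2.17-fold. The gene of Rtp4 shares 39791 bases with an RNA gene on the same strand and that of Usp18 15744 bases with an antisense RNA gene. The remaining pair did not pass the test: Ifi27l2a had a log2 fold change of 1.03 ± 0.43 SE (edgeR adjusted p = 0.0649) and Ifi35 one of 0.13 ± 0.10 SE (edgeR adjusted p = 0.318). The highest level per kilobase of exon in CIA joints was that of Ifi27l2a at 25.2 CPM per kilobase, followed by Bst2 at 14.9 and Isg15 at 10.1, and the lowest was that of Herc6 at 0.520 CPM per kilobase. Exon lengths were those of GENCODE vM39, which need not be the release used in counting.

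**Figure D2:**
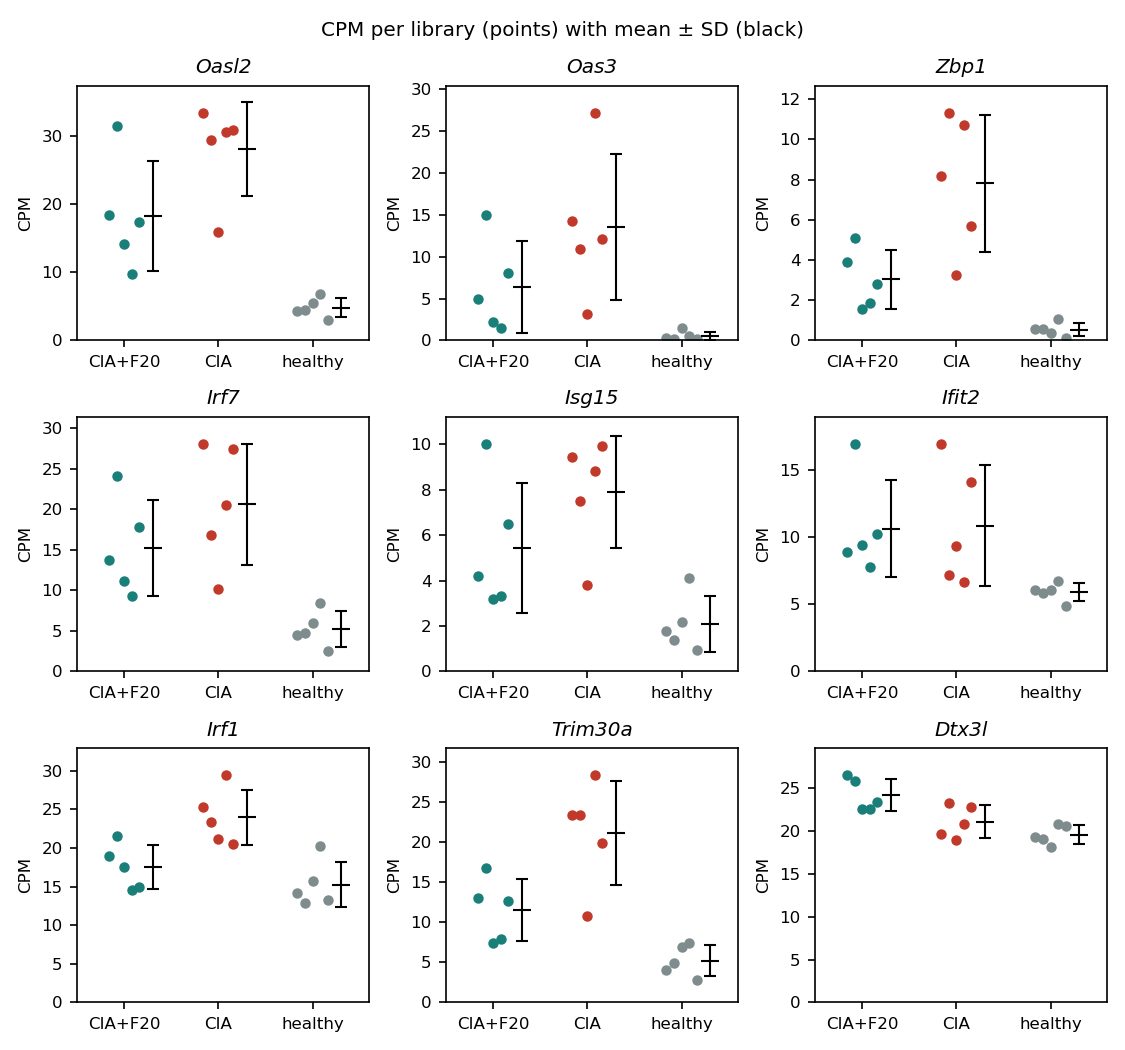
Level in CPM of selected members in each library, 1 panel per gene, with a point per library and, beside the points, the group mean with whiskers of 1 SD, for CIA+F20, CIA and healthy from left to right. Oasl2, Oas3 and Zbp1 lie above the healthy libraries in both arthritic groups, while Irf1 in CIA+F20 overlaps with the healthy libraries.

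The second question is what F20 changed in arthritic joints, with CIA+F20 set against CIA. Across all tested genes 15.5% fell and 14.1% rose (edgeR adjusted p under 0.05). Of the 35 members 3 fell and none rose, so that the share of members called lower did not exceed that of all genes. No member had all CIA+F20 libraries below all CIA libraries, against 5.32% of all genes, and none had all of them above, against 8.28%. The members' median log2 fold change was -0.37 and that of all tested genes -0.06, and the members ranged from -1.37 to 0.20. Irf1 fell to 17.5 ± 2.83 CPM in CIA+F20, against 23.9 ± 3.62 CPM in CIA (SD, n = 5 each; log2 fold change -0.45 ± 0.14 SE, edgeR adjusted p = 0.0318). Zbp1 fell to 3.04 ± 1.46 CPM, against 7.82 ± 3.40 CPM in CIA (-1.37 ± 0.44 SE, edgeR adjusted p = 0.0310). Trim30a fell to 11.6 ± 3.92 CPM, against 21.2 ± 6.54 CPM in CIA (-0.87 ± 0.30 SE, edgeR adjusted p = 0.0413).

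These 3 calls rest on few libraries. The number of members that fell was 0 without CIA 2, CIA 4, CIA+F20 3, CIA+F20 4 or CIA+F20 5, and 1 without CIA 1. It was 7 without CIA+F20 2 and 11 without CIA 3. All genes that fell numbered 1405 to 3208 with each library left out. DESeq2 called 6 members lower, against 19.4% of all genes. At an unadjusted p under 0.05 in edgeR, 8 members were lower, against 24.3% of all genes, and 1 was higher, against 19.7%, namely Dtx3l (0.20 ± 0.08 SE, edgeR adjusted p = 0.0734). At the other end stood Ifit2 with a log2 fold change of -0.03 ± 0.26 SE, Ifit1 with -0.09 ± 0.37 SE and Mx2 with -0.07 ± 0.24 SE, whose edgeR adjusted p-values were 0.940, 0.863 and 0.849. Their standard errors leave room for a change in either direction, and their signs turned when single libraries were left out.

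Both libraries named above stood apart over most members. CIA 3 was the lowest CIA library for 31 of the 35 members, against 18.6% of all tested genes. CIA+F20 2 was the highest treated library for 31 members, against 17.2% of all tested genes. The summed level of the 35 genes was 408, 588, 356, 326 and 444 CPM in CIA+F20 libraries, 663, 533, 357, 628 and 580 CPM in CIA libraries and 233, 244, 275, 284 and 198 CPM in healthy libraries. Both arthritic groups overlapped: CIA+F20 1, 2 and 5 lay within the CIA range and CIA 2, 3 and 5 within the CIA+F20 range, whereas all 10 arthritic libraries lay above the healthy ones. The same libraries stood at the edge of their groups in several marker lists. CIA 3 had the lowest sums of its group for neutrophil markers (304 CPM) and erythroid markers (232 CPM). Its sums were the highest of its group for osteoclast (591 CPM), fibroblast (5730 CPM) and skeletal muscle markers (70200 CPM). CIA+F20 2 had the highest sums of its group for neutrophil (710 CPM), erythroid (1410 CPM) and B and plasma cell markers (45.5 CPM) and the lowest for macrophage markers (86.0 CPM). Their part in the members' values was not tested. Healthy 4 was the highest healthy library for 23 members, against 28.4% of all tested genes, and healthy 5 the lowest for 25, against 21.0%.

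**Figure D3:**
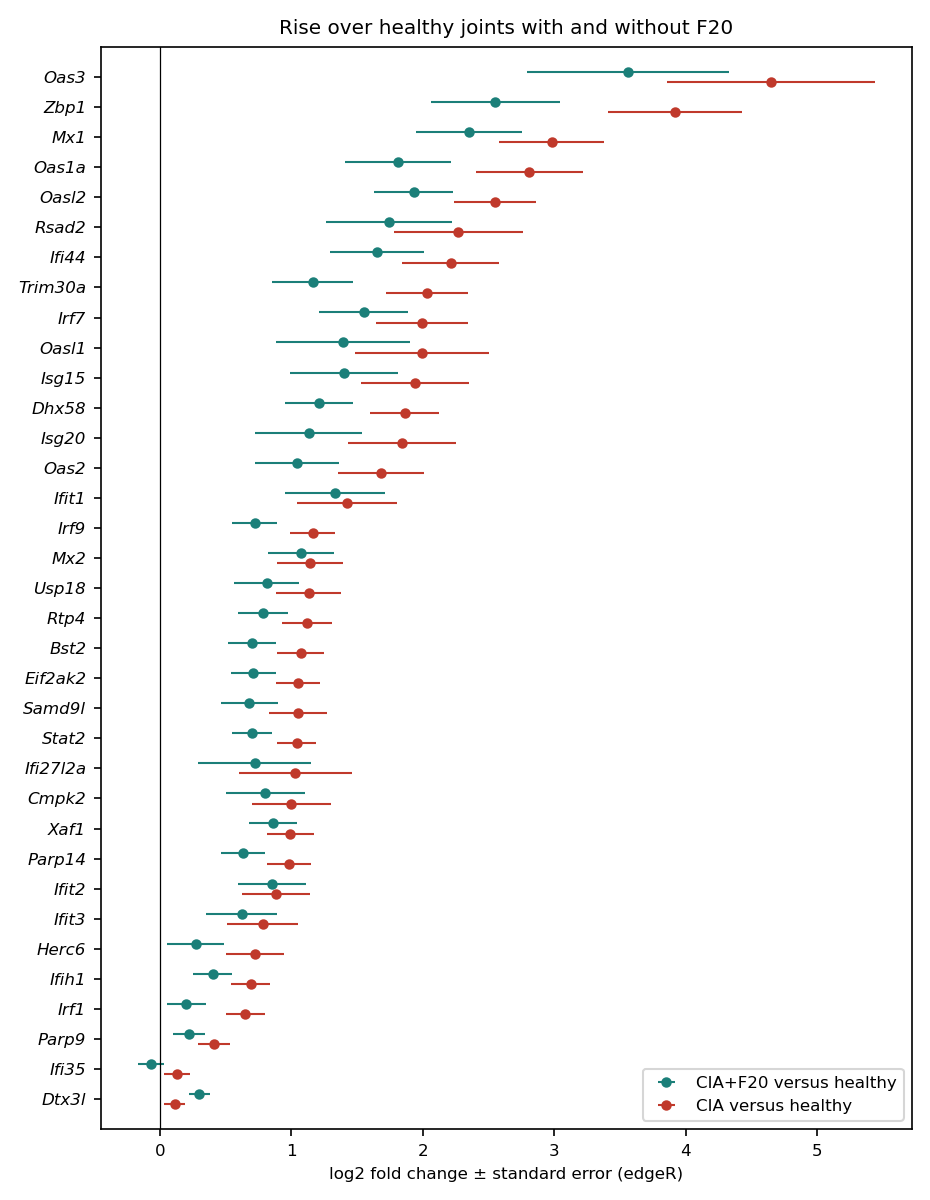
Log2 fold change over healthy joints of each of the 35 genes, for CIA+F20 (green) and for CIA (red), with whiskers of 1 standard error (edgeR), sorted by the value in CIA. The CIA points run from 0.11 for Dtx3l to 4.65 for Oas3 and the CIA+F20 points from -0.07 for Ifi35 to 3.56 for Oas3, and both sets share the healthy libraries.

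The third question is what remained in treated joints, with CIA+F20 set against healthy. In edgeR's test 0.0% of all genes were higher and 0.0% lower, with a lowest adjusted p of 0.127. At an unadjusted p under 0.05, 6.61% of all genes were higher in CIA+F20, and 30 of the 35 members were. In DESeq2 0.698% of all genes were higher, 110 in number, and 17 of these were members. Every CIA+F20 library lay above every healthy library for 20 of the 35 members, against 1.98% of all genes, and below it for none, against 1.27%. The median log2 fold change of the members was 0.85 and that of all tested genes 0.01. Without healthy 3, 3 members passed edgeR's test (Oas3, Oasl2 and Mx1), among 105 of all genes called higher. Without CIA 3, 2 members did (Oasl2 and Mx1), among 3 of all genes called higher.

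The lowest p-values of the members in this comparison belonged to Oasl2, Mx1, Zbp1 and Xaf1. Oasl2 averaged 18.3 ± 8.12 CPM in CIA+F20 and 4.82 ± 1.45 CPM in healthy joints (SD, n = 5 each), a ratio of 3.80 (log2 fold change 1.93 ± 0.30 SE, edgeR adjusted p = 0.127). Mx1 averaged 1.53 ± 0.748 CPM in CIA+F20 and 0.293 ± 0.115 CPM in healthy joints, with a log2 fold change of 2.35 ± 0.40 SE (edgeR adjusted p = 0.127). For Zbp1 the log2 fold change was 2.55 ± 0.49 SE (edgeR adjusted p = 0.160) and for Xaf1 0.86 ± 0.18 SE (edgeR adjusted p = 0.173). The values of all 4 were higher in each of the 5 CIA+F20 libraries than in any healthy library. Ifi35, with -0.07 ± 0.10 SE (edgeR adjusted p = 0.937), Irf1, with 0.20 ± 0.15 SE (0.780), Parp9, with 0.22 ± 0.12 SE (0.638), and Herc6, with 0.27 ± 0.22 SE (0.827), stood nearest to the healthy level.

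How much of the arthritis rise stayed under F20 was expressed as the difference in mean log2 CPM between CIA+F20 and healthy joints, in percent of that between CIA and healthy joints. Both differences share the healthy libraries, so the share is a description and was given no test. It was taken for the 32 members that rose. Their median was 67.4%, and between 58.6% without CIA+F20 2 and 75.7% without CIA+F20 4, and 72.5% without healthy 3 and healthy 4. Among all 4094 genes that rose in CIA the median was 32.2%, with quartiles of 15.2% and 50.6%. On the linear scale of CPM the medians were 57.1% for the members and 21.4% for all genes that rose.

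The IFIT genes and Mx2 kept most of their rise, at 102% for Ifit2, 88.2% for Ifit1, 83.2% for Ifit3 and 88.2% for Mx2. Xaf1 kept 88.7%, Cmpk2 83.2%, Irf7 78.4% and Mx1 77.0%. The OAS family stood close together, from 63.6% for Oas2 and 64.5% for Oas1a over 67.9% for Oasl1 and 72.7% for Oas3 to 73.2% for Oasl2. Of the factors that transmit the signal, Stat2 kept 67.0% and Irf9 63.7%. Isg15 kept 69.5%, Usp18 67.2%, Rsad2 73.9%, Isg20 66.2% and Ifi44 74.5%. The sensors kept 58.8% for Ifih1, 63.1% for Dhx58 and 64.4% for Zbp1. Bst2 kept 67.1%, Samd9l 67.6%, Rtp4 68.8%, Eif2ak2 65.7% and Parp14 64.1%.

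The lowest shares were 30.9% for Irf1, 41.6% for Herc6, 53.6% for Parp9 and 57.2% for Trim30a, and only Irf1 and Herc6 lay under 50%. For Zbp1 the scale mattered most among those called lower, with 64.4% of the log2 rise and 34.3% of the linear rise kept. Single libraries moved the shares: that of Ifit2 lay between 78.7% without CIA+F20 2 and 133% without CIA 1, that of Irf1 between 19.2% without CIA+F20 2 and 40.6% without healthy 4. The shares of neighbours in this order differed by less than the spread between CIA+F20 libraries, whose SD ran from 15 percentage points for Bst2 to 64.5 for Ifit3.

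**Figure D4:**
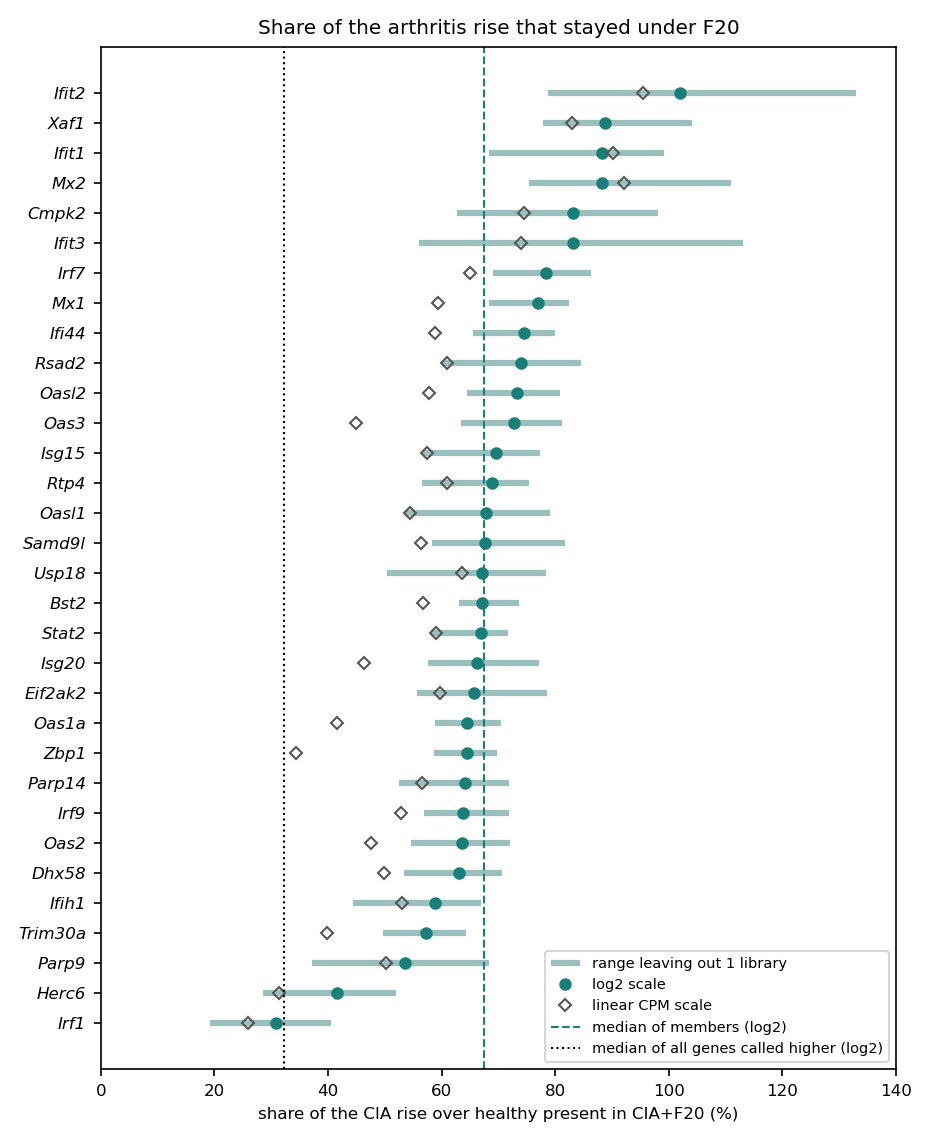
Share of the log2 rise in CIA that stayed in CIA+F20, in percent, for the 32 members that rose, as circles on the log2 scale and diamonds on the linear scale of CPM, with bars over the log2 values when each library is left out. The dashed line is the members' median (67.4%) and the dotted line that of all genes that rose (32.2%), above which all circles lie except that of Irf1 (30.9%).

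The share also differed between treated libraries. Set against the mean CIA rise, the median member stood at 70.5%, 111%, 49.4%, 37.9% and 78.9% of it in CIA+F20 libraries 1 to 5, at 118%, 99.9%, 56.7%, 117% and 105% in CIA libraries and at -5.72%, -3.76%, 9.62%, 25.8% and -34.7% in healthy libraries. CIA+F20 2 was thus among the CIA libraries, and CIA+F20 4 was nearest to healthy joints. In CIA+F20 libraries 1 to 5, 29, 33, 25, 21 and 31 members lay above every healthy library, and in CIA libraries 33, 34, 25, 32 and 35 did. The same counts over all tested genes were not made, so these have no background to be set against.

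**Figure D5:**
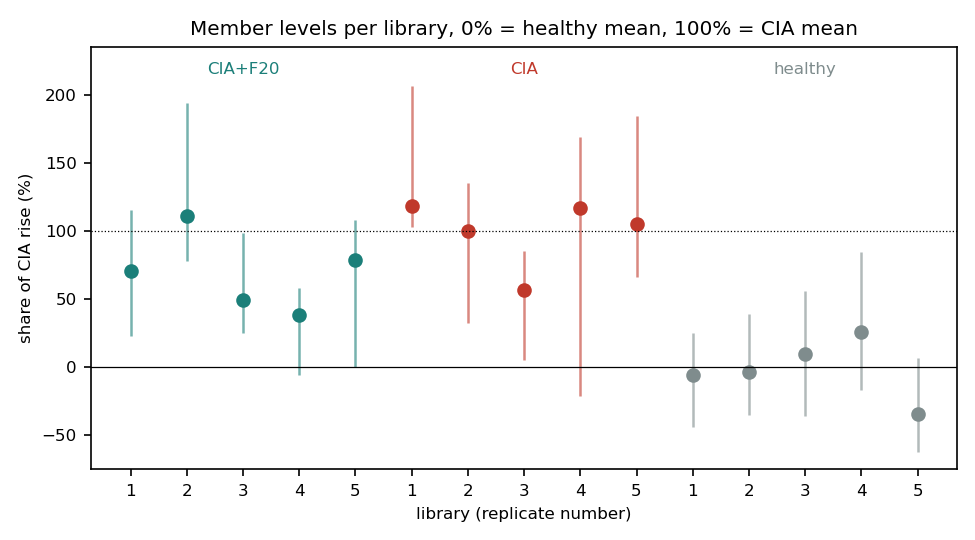
Share of the mean CIA rise reached in each library, in percent on the log2 scale, where 0 is the healthy mean and 100 the CIA mean, with a point at the median of the 32 members that rose and a line from the lowest to the highest member. The medians run from 37.9% to 111% in CIA+F20, from 56.7% to 118% in CIA and from -34.7% to 25.8% in healthy libraries.

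Those interferon genes that the table held were at the limit of detection. Of 21 ligand genes looked for, 5 were in the table and none passed the filter. Ifng, the interferon gamma gene, had 3 reads in all CIA+F20 libraries together, 9 in CIA and 3 in healthy libraries. No difference in its CPM passed the test (exact permutation test, two-sided, p = 0.167 for CIA+F20 against CIA, 0.23 for CIA against healthy and 0.921 for CIA+F20 against healthy, where 5 libraries against 5 can reach 0.00794). Ifnb1 had 1 read over all 15 libraries. For the 5 ligand genes in the table a difference in RNA was therefore not detectable at this depth. The other ligand genes were not listed. As the table keeps 906 genes with no read, their absence is not a reading of 0, and their level is unknown.

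Of the 5 tested receptor genes 4 rose in CIA, where 26.0% of all tested genes rose, and 3 fell under F20, where 15.5% fell. Ifnar1, a chain of the type I interferon receptor, averaged 22.3 ± 1.04 CPM in CIA+F20, 30.1 ± 5.23 CPM in CIA and 20.1 ± 1.19 CPM in healthy joints (SD, n = 5 each). It fell by 0.43 on the log2 scale under F20 (SE 0.11, edgeR adjusted p = 0.0109). Its partner Ifnar2 fell by 0.69 (SE 0.19, edgeR adjusted p = 0.0157), and the interferon gamma receptor gene Ifngr1 by 0.38 (SE 0.11, edgeR adjusted p = 0.0187). Ifnlr1, of the lambda receptor, rose in CIA (3.20 ± 0.70 SE) and its change under F20 did not pass the test (-1.30 ± 0.62 SE, edgeR adjusted p = 0.119). Ifngr2 passed neither test. The median share of the rise kept was 26.9% for the 4 receptors that rose, within 18.6% for Ifnar2 to 65.4% for Ifnlr1.

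Of the receptor kinases, Tyk2 averaged 18.9 ± 1.05 CPM in CIA+F20, 21.6 ± 2.25 CPM in CIA and 16.2 ± 1.58 CPM in healthy joints, rose in CIA (0.42 ± 0.09 SE, edgeR adjusted p = 0.00247) and kept 55.3% of the rise. Jak1 and Jak2 did not pass the test in any comparison, with log2 fold changes of -0.06 ± 0.10 SE and 0.16 ± 0.11 SE in CIA against healthy joints. Of 5 feedback inhibitors 4 rose in CIA, against 26.0% of all tested genes. Of these 5, Socs1, which blocks the receptor kinases, fell under F20 (-0.84 ± 0.24 SE, edgeR adjusted p = 0.0211), against 15.5% of all tested genes.

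Of 14 genes that act in sensing upstream of interferon, 9 rose and 1 fell in CIA, and 6 fell and 1 rose under F20. The shares of all tested genes were 26.0% and 19.5% in CIA and 15.5% and 14.1% under F20, in the same order. The 5 with the lowest p in CIA were Tlr9, Tlr7, Irf8, Mavs and Rigi. Tlr7, an endosomal receptor for single-stranded RNA, rose in CIA (2.16 ± 0.35 SE) and fell under F20 (-1.21 ± 0.33 SE, edgeR adjusted p = 0.0170). Mavs, the mitochondrial adaptor behind the RNA helicases, went the other way, with 94.3 ± 17.2 CPM in CIA+F20, 45.8 ± 18.5 CPM in CIA and 96.3 ± 10.2 CPM in healthy joints, and passed the test in both comparisons (edgeR adjusted p = 0.00541 for CIA+F20 against CIA and 0.00152 for CIA against healthy). The median share kept by the 9 that rose was 33.7%.

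A further list of 57 interferon-induced genes outside the 35, of which 56 were tested, gave 46 that rose and 2 that fell in CIA. Under F20 18 of them fell and 1 rose. Across all tested genes 26.0% rose and 19.5% fell in CIA, and 15.5% fell and 14.1% rose under F20. The 5 of lowest p in CIA were Ifi207, Oas1g, Slfn2, Ifitm3 and Slfn8. Their log2 fold changes in CIA were 1.61, 4.14, 3.07, 1.42 and 2.79, and under F20 they were -1.10, -1.36, -1.54, -0.79 and -1.07, all past the test. Ifitm3, which blocks fusion of virus with endosomes, averaged 46.5 ± 4.65 CPM in CIA+F20, 80.5 ± 27.6 CPM in CIA and 30.1 ± 5.39 CPM in healthy joints (edgeR adjusted p = 0.0129 for CIA+F20 against CIA). The median share kept by the 46 was 59.9% on the log2 scale and 36.8% on the linear scale, against 67.4% and 57.1% for the members. Single genes of the 46 lay within 7.48% to 131% on the log2 scale. Whether the lists differ was not tested.

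Lists of cell type markers differed in direction. Across all tested genes 26.0% rose and 19.5% fell in CIA, and 15.5% fell under F20. In CIA, 3 of 5 endothelial and 4 of 6 skeletal muscle markers fell, and 1 of 7 fibroblast markers rose. The pan-leukocyte gene Ptprc had 13.1 to 29.8 CPM in CIA+F20, 17.9 to 90.4 CPM in CIA and 2.99 to 13.8 CPM in healthy libraries, rose in CIA (2.72 ± 0.47 SE, edgeR adjusted p = 0.000646) and fell under F20 (-1.26 ± 0.44 SE, edgeR adjusted p = 0.0431). Of 10 macrophage markers 9 rose in CIA and 7 fell under F20, and their summed level was 86.0 to 158 CPM in CIA+F20, 162 to 523 CPM in CIA and 43.5 to 138 CPM in healthy libraries. All 7 neutrophil markers rose in CIA and none passed the test under F20, with sums of 228 to 710 CPM in CIA+F20, 304 to 2960 CPM in CIA and 39.9 to 388 CPM in healthy libraries. Of 3 markers of plasmacytoid dendritic cells, a main source of type I interferon, none passed the test in either comparison, and their sums were 2.70 to 5.08 CPM in CIA+F20, 2.87 to 8.32 CPM in CIA and 1.39 to 4.34 CPM in healthy libraries. No marker of the lists just named was at 0 in all libraries of a group. Of the keratinocyte markers, 2 were at 0 in all CIA+F20 libraries.

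The shares kept by the markers that rose differed by cell type. The median was 37.9% for macrophage, 69.4% for neutrophil, 81.4% for B and plasma cell, 85.4% for erythroid and 20.9% for osteoclast markers, and Ptprc kept 58.9%. On the log2 scale the medians of neutrophil, B and plasma cell and erythroid markers were thus at or above the 67.4% of the members. On the linear scale the medians were 18.8%, 32.2%, 47.6%, 57.6% and 6.92% for the same lists in that order, and 31.3% for Ptprc, so that only erythroid markers reached the 57.1% of the members. The part that these cells have in the members' values was not tested.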

How the data were processed

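The deposited table held raw read counts per gene, made by the authors. Per the submitters' processing notes, reads were handled with fastp 0.23.2, HISAT2 2.2.1 and featureCounts 2.0.3 on GRCm39. Which annotation release and strand setting were used is not stated there. Totals of 18627303 to 34247317 counts limit the precision of low genes. Counts were analysed with edgeR 4.0.16 in R 4.3.3 (TMM scaling, filterByExpr with a minimum count of 10, quasi-likelihood F test, all 15 libraries in one fit, Benjamini-Hochberg adjustment over 15770 genes), and a gene was called at an adjusted p under 0.05. Log2 CPM used a prior count of 2. DESeq2 1.42.0, another normalization, no filter, 2-group fits, a replicate block and the omission of each library were tried as alternatives. On simulated data for CIA against healthy (14927 genes), the fit recovered 24% of changed genes at a fold of 1.5, 68% at 2, 92% at 3 and 96% at 4. It also called 5 unchanged genes. Only 50 genes were changed at each fold, whereas 7175 genes were called in the real comparison. Because the adjustment depends on how many genes change, these rates need not hold for the real data. Promoter windows came from the GRCm39 sequence and GENCODE vM39, and exon lengths from GENCODE vM39. The deposited coordinates equal those of that release for 7 of the 35 members.

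The members, lists and tests were chosen with earlier results of these data known. Values per library are given for the 4 transcription factors, the 4 lowest p-values per comparison, the 3 highest p-values in CIA+F20 against CIA, the 3 highest and 3 lowest shares kept, the 3 highest mean levels and Isg15. Oas3, as the largest rise, was added after its values were seen. Other pathway genes are every tested receptor and kinase, and up to 5 of any other list by lowest p in CIA against healthy joints. Ifng, Ifnb1 and Ptprc were named for their roles and Ifit3b as a close copy of a member. One further gene of the pathway is not reported here.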

Additional observations from a re-analysis of the deposited data

Results flagged for a closer look

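Each member was examined within each group of 5 libraries on the scale of log2 CPM. It was picked out where the gap from its highest or lowest library to the nearest other exceeded 0.71 of the whole range. This is Dixon's 95% critical value. Of 105 such groups 9 were picked out, and chance picks out about 1 in 20 groups. CIA 3 was far below the other CIA libraries for Oasl1 at 1.15 CPM, Oasl2 at 16 CPM, Ifi27l2a at 10.8 CPM and Rtp4 at 11.6 CPM. CIA+F20 2 was far above the other treated libraries for Herc6 at 5.11 CPM. Healthy 5 was far below the other healthy libraries for Stat2 at 9.5 CPM and Oas2 at 3.14 CPM, and healthy 1 for Ifi35 at 13.6 CPM. Healthy 4 was far above them for Ifit1 at 7.03 CPM.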

How the results depend on the processing

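The count of members that rose in CIA stayed between 31 and 33 under all alternatives. The calls between the arthritic groups were less stable. Members lower in CIA+F20 than in CIA numbered 1 with those 10 libraries alone, 6 in DESeq2 and 0 to 11 with each library left out, and members higher 0 to 1. All genes lower, 2450 in the fit reported, numbered 1310 with those 10 libraries alone and 1405 to 3208 with each library left out. All genes higher, 2219 in the fit reported, numbered 1364 and 1478 to 3007. Members higher in CIA+F20 than in healthy joints numbered 17 in DESeq2 and 0 to 3 with each library left out, and all genes higher 110 and 0 to 105, all genes lower 11 and 0 to 2. The median log2 fold change of all genes in that comparison was -0.01 with 2 groups alone, with DESeq2 and with its size factors. The cause was not tested. With single libraries left out, the log2 fold change between CIA+F20 and CIA turned sign in at least 1 case for Ifit1 (-0.51 to 0.09), Ifit2 (-0.26 to 0.19), Ifit3 (-0.40 to 0.03), Mx2 (-0.22 to 0.12) and Xaf1 (-0.24 to 0.04).

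Same-numbered libraries did not pair: their deviations correlated at -0.39 to 0.24, and 2 of 15 libraries correlated best with their own number. With the replicate block 31 members rose in CIA, 2 fell under F20 and 1460 of all genes fell under F20. Healthy libraries 3 and 4 were left out together as an alternative chosen after seeing the data, which gave 32 members that rose, 4 that fell under F20 and a median share kept of 72.5%.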
